A study of Homo sapiens with 4 samples.

Results

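BMP7 is the coding gene that follows TFAP2C on chromosome 20, and its contacts with the bait bins of a UMI-4C experiment at the TFAP2C locus are described here. BMP7 was represented by the 21 bins of 5 kb between chr20:55740001-55845000 (GRCh37, hg19), out of 11825 bins of chromosome 20 with any contact. The bins were set by position, but BMP7 and the windows were chosen with earlier results of these data known. The 3 outermost bins, chr20:55830001-55845000, cover the promoter end of the gene, and the other 18 bins are called the body. The next 21 bins on each side served as flanks of the same width: chr20:55635001-55740000, the lower flank, which lies between the baits and BMP7, and chr20:55845001-55950000, the upper flank, which lies beyond BMP7. No annotation of GRCh37 was used here, so that BMP7 lies in these bins, with its promoter at the higher-coordinate end, and that TFAP2C lies in its bait bin, rests on general knowledge of the locus.

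BMP7 encodes a secreted ligand of the bone morphogenetic protein family, which signals through serine/threonine kinase receptors and SMAD transcription factors and is needed for kidney and eye development. TFAP2C encodes AP-2 gamma, a transcription factor of early ectoderm and trophoblast, and p63 is a master regulator of stratified epithelia. Neighbouring genes can share a regulatory neighbourhood, and UMI-4C, a chromosome conformation method, counts the fragments that become ligated to a selected one, the bait, in crosslinked nuclei.

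H9 cells, an established human embryonic stem cell line, had been grown for 7 days in 1 uM retinoic acid (RA) and 5 ng/ml BMP4, by which the submitters made surface ectoderm cells. BMP4 is another ligand of the family to which BMP7 belongs, and all libraries had received it. A wild-type and a p63-/- genotype were compared, with 2 libraries each. The labels state neither whether the p63-/- cells are 1 clone nor whether replicates came from separate cultures, so p-values measure no more than the spread of these samples, which may be technical. The files hold no expression, so neither the cell type nor the loss of p63 could be checked in them.

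The libraries held 16744 to 44199 contacts on chromosome 20, of which 4882 to 12238 joined different bins. The 3 bait bins begin at 55200001 (the TFAP2C bait), 55380001 (the middle bait) and 55420001 (the upper bait). All 3 lie below BMP7, and the middle and upper baits lie between TFAP2C and BMP7. From the TFAP2C bait BMP7 begins 540 kb away, from the middle bait 360 kb and from the upper bait 320 kb. Levels are given as contacts and as percent of all contacts of a bait within 1 Mb, leaving out bins within 10 kb of it. In wild-type replicates 1 and 2 and p63-/- replicates 1 and 2 the TFAP2C bait had 464, 235, 215 and 330 such contacts, the middle bait 213, 124, 90 and 120, and the upper bait 610, 363, 236 and 396. The same order of libraries is kept below. Wilson and exact 95% intervals and the limits given for counts of 0 cover counting error at most. They may be too narrow even for that, because reads that are copies of 1 molecule may have been counted apart.

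BMP7 met the baits rarely but in every library. Over the 3 baits together there were 62 contacts, and the 4 libraries held nearly the same raw number, 15, 16, 16 and 15. The libraries differed in depth, and as percent of their summed bait contacts these were 1.33, 2.57, 3.30 and 2.05. The TFAP2C bait had 9, 8, 6 and 6 BMP7 contacts. As percent of the bait's contacts these were 1.94 (Wilson interval 1.02 to 3.64), 3.40 (1.73 to 6.57), 2.79 (1.29 to 5.95) and 1.82 (0.836 to 3.91), so the genotypes overlapped. From the upper bait, wild-type libraries had 5 and 8 BMP7 contacts and p63-/- libraries 4 and 9, or 0.820, 2.20, 1.69 and 2.27% of its contacts. The middle bait had the fewest, 1, 0, 6 and 0. Its counts of 0 allow up to 2.42% of the bait's contacts in wild-type replicate 2 and up to 2.5% in p63-/- replicate 2. p63-/- replicate 1 alone thus held 6 of the 7 BMP7 contacts of the middle bait, 4 of them in a single bin.

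**Figure D1:**
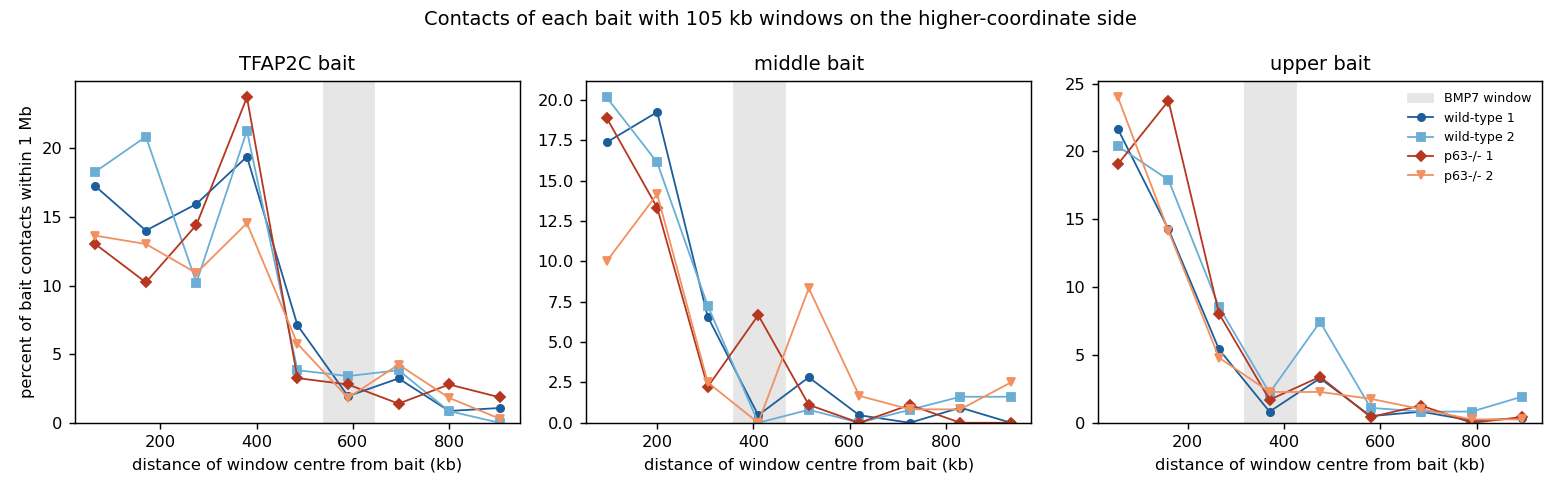
Percent of each bait's contacts within 1 Mb (y axis) that fell in each window of 21 bins on the higher-coordinate side, against the distance of the window's centre from the bait (kb, x axis), 1 line for each library. The BMP7 window (grey) lies in the low part of all 3 profiles, at 1.82 to 3.40% for the TFAP2C bait.

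Even so, BMP7 was met far more often than distant parts of the chromosome. Beyond 1 Mb, and without the single fullest bin, the TFAP2C bait had 779 contacts over 11426 bins, a density that gives 1.43 contacts in 21 bins. The 29 contacts of the TFAP2C bait with BMP7 were 20.3 times that number. For the upper bait, 26 BMP7 contacts stood against 1.22, a ratio of 21.3, and for the middle bait 7 stood against 0.812, a ratio of 8.62. For the middle bait the libraries stood at 3.70, 0, 42.4 and 0 times the distant density, so that its ratio came almost wholly from p63-/- replicate 1. These ratios pool the libraries and carry no test. Against the same distant densities, the lower and upper flank held more pooled contacts than BMP7. They had 68 and 41 with the TFAP2C bait, 102 and 64 with the upper bait and 28 and 18 with the middle bait. The excess over distant parts was thus shared by the neighbouring windows. For the TFAP2C and upper baits BMP7 exceeded the distant density in each of the 4 libraries, by 12.8 to 32.7 times.

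The comparison with windows at the same distance depended on the bait. On the opposite side of the TFAP2C bait, 540 to 640 kb away, there were 1, 0, 0 and 5 contacts, 6 in all against 29 with BMP7. On the opposite side of the upper bait, at 320 to 420 kb, there were 17, 3, 10 and 2, or 32 in all against 26 with BMP7. For the middle bait both sides held 7. The TFAP2C bait thus met BMP7 more often than the mirror window in 4 of 4 libraries. In p63-/- replicate 2 the difference was 6 contacts to 5. The other baits showed no such excess for BMP7. With the TFAP2C bait both flanks also exceeded their mirror windows, the lower by 68 contacts to 2 and the upper by 41 to 3. The excess was thus not particular to BMP7. The TFAP2C bait itself met the region 320 to 420 kb above it, which lies between the upper bait and BMP7, 89, 52, 45 and 48 times. The upper bait meets BMP7 at those same distances and did so 5, 8, 4 and 9 times. The middle bait had 6, 1, 6 and 0 contacts 320 to 420 kb above it. These are raw counts of baits with different totals, and no order between baits is read from them.

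BMP7 formed a low point between its flanks. Summed over the baits, the lower flank had 80, 49, 28 and 41 contacts, BMP7 had 15, 16, 16 and 15, and the upper flank had 41, 37, 12 and 33. BMP7 was below the lower flank in 4 of 4 libraries. It was also below the upper flank, which is farther from every bait, in 3 of 4 libraries. In p63-/- replicate 1 BMP7 had 16 contacts against 12 in the upper flank. Pooled over the libraries, BMP7 had 0.313 times the contacts of the lower flank (exact interval 0.232 to 0.418) and 0.504 times those of the upper flank (0.365 to 0.689).

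In the contacts as counted, BMP7 was lower than both flanks for each bait, though with few counts for the middle bait. The upper bait showed it most clearly, with 102 contacts in the lower flank, 26 in BMP7 and 64 in the upper flank. BMP7 held 0.406 times the contacts of the upper flank there (exact interval 0.247 to 0.650). The corresponding numbers were 68, 29 and 41 for the TFAP2C bait, where the ratio to the upper flank was 0.707 with an interval from 0.424 to 1.17, so that difference was not detectable at this depth. They were 28, 7 and 18 for the middle bait, a ratio to the upper flank of 0.389 (0.137 to 0.976). That value rests on single libraries, being 0.0588, or 1 contact against 17, without p63-/- replicate 1 and 0.875 without p63-/- replicate 2. For the sum of the baits, the ratio to the upper flank lay between 0.414 and 0.573 whichever library was left out, with every interval below 1. Counting each bait in each library apart, BMP7 was lower than the upper flank in 6 of 6 wild-type values, and in p63-/- values it was lower in 3, equal in 1 and higher in 2 of 6. That difference between genotypes was not tested on these counts, which share libraries.

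**Figure D2:**
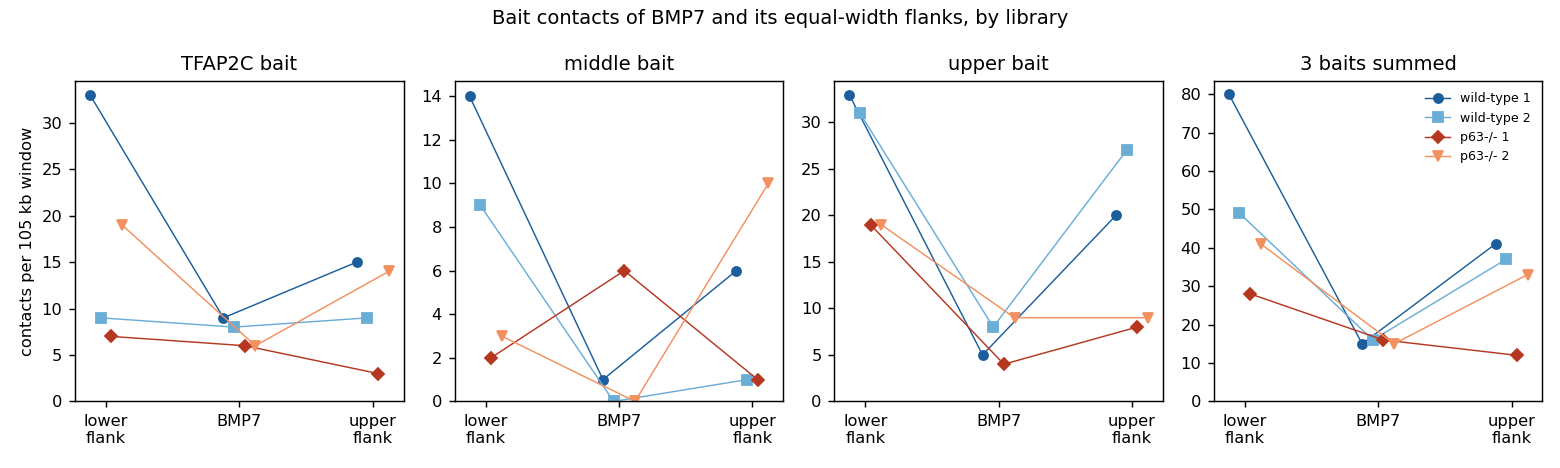
Contacts (y axis) of the lower flank, BMP7 and the upper flank, 21 bins each, for each bait and for the 3 baits summed, 1 line for each library. In the summed panel the 4 libraries lie together at 15 or 16 contacts in BMP7 and spread from 28 to 80 in the lower flank.

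Against the geometric mean of its flanks, which is the level midway between them on a log scale, BMP7 stood at 0.549 with the TFAP2C bait, 0.312 with the middle and 0.322 with the upper bait, and at 0.397 in the sum. The same ratio was computed for every 21-bin window tiled from BMP7 that, with both its neighbours, lies within 1 Mb of the bait (for the sum, of every bait), more than 10 kb from any bait, and has neighbours above 0. BMP7 had the lowest ratio among 10 windows with the TFAP2C bait, 9 with the middle bait and 8 in the sum. It had the next to lowest among 9 with the upper bait. Where BMP7 was lowest, the next ratio was 0.581 with the TFAP2C bait, 0.408 with the middle bait and 0.492 in the sum. The medians over these windows were 0.877 for the TFAP2C bait, 1.12 for the middle bait, 1.11 for the sum and 1.23 for the upper bait. Several of the other windows held fewer contacts than BMP7, and the single lower ratio of the upper bait, 0.180, rests on 2 contacts. The flanks' own ratios for the sum, 2.60 for the upper and 1.03 for the lower, are raised in part by construction, since BMP7 is a neighbour of both. With each bin counted once in a library, the BMP7 ratio was nearer 1 for the TFAP2C bait (0.694), the upper bait (0.428) and the sum (0.574). For the middle bait it was farther from 1, at 0.280.

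The BMP7 bins were also seen less often than the flanks in counts that involve no bait. Contacts of the 21 BMP7 bins with bins other than baits numbered 13, 8, 16 and 22, or 59 in all, against 95 for the lower and 85 for the upper flank. Counts within single bins, which come from fragments that did not leave their own 5 kb, numbered 28, 13, 19 and 35 in BMP7, 95 in all, against 191 and 142. BMP7 thus had 0.694 times the contacts of the upper flank with bins other than baits (exact interval 0.489 to 0.979) and 0.669 times its counts within bins (0.510 to 0.874). These ratios are nearer 1 than the 0.504 of the bait contacts, and the intervals overlap. Relative to contacts with other bins, the summed BMP7 ratio to the geometric mean was 0.605 in place of 0.397, and relative to counts within bins it was 0.689. For the TFAP2C bait these 2 ratios were 0.837 and 0.952 in place of 0.549, so that relative to counts within bins BMP7 stood close to the level of its flanks. They were 0.490 and 0.558 for the upper bait and 0.475 and 0.541 for the middle bait. How far the visibility of the bins accounts for the low point was not tested. Of the lower flank's counts within bins, 78 lay in the single bin at 55655001, and without it the ratio relative to counts within bins was 0.530 for the sum and 0.732 for the TFAP2C bait.

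**Figure D3:**
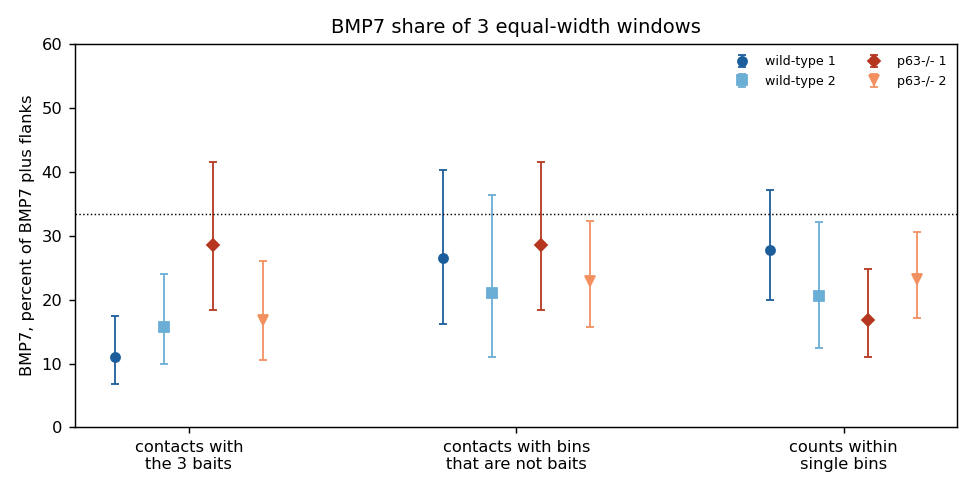
BMP7 as percent of the counts of BMP7 and both flanks (y axis) in 3 kinds of counts, 1 point for each library, with Wilson 95% intervals. The dotted line marks equal shares. For contacts with the 3 baits the points run from 11.0 to 28.6%, and for counts within single bins from 16.8 to 27.7%.

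Within BMP7 the contacts were scattered, and no bin recurred in all libraries. Of the 63 pairs of a bait and a BMP7 bin, 25 were met at all: 17 of them in a single library, 7 in 2 and 1 in 3. The fullest pair held 6 contacts over the 4 libraries. The flanks, at the same width, had 46 (lower) and 34 (upper) of 63 pairs met. Of these, 5 and 2 pairs reached 10 contacts. In all, 16 of the 21 BMP7 bins were met by some bait and 1 by all 3, and 5 bins of the body, at 55740001, 55765001, 55785001, 55790001 and 55795001, were met by none.

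The bins of the body with most contacts differed between the baits. The TFAP2C bait met the bin at 55800001 most, with 5, 0, 0 and 1 contacts, so that wild-type replicate 1 gave nearly all of them. Its next bins were 55775001, with 0, 0, 4 and 0, and 55810001, with 1, 0, 2 and 1, the latter being the pair seen in 3 libraries. The upper bait met 55760001 and 55770001 in wild-type replicate 2 alone, 4 and 3 times. It met 55775001 in the p63-/- libraries alone, 1 and 3 times. Over the 3 baits, the bin at 55775001 was the fullest of BMP7, with 0, 0, 5 and 3 contacts. It fell under the minimum of 10 contacts for a test, and it is 1 of 21 bins looked at. The middle bait met 55745001 4 times in p63-/- replicate 1 and 55750001 and 55770001 once each.

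The promoter end, where transcription of BMP7 starts, was met in 3 of 4 libraries. The TFAP2C bait had 0, 5, 0 and 3 contacts there. Its bin at 55830001 had 0, 2, 0 and 1, the bin at 55835001 had 0, 1, 0 and 1, and the bin at 55840001 had 0, 2, 0 and 1. With this bait all contacts of the promoter end thus lay in the 2 libraries numbered 2. The middle bait met the promoter end once, in the bin at 55835001 in p63-/- replicate 1, and the upper bait met the same bin 2 times, in p63-/- replicate 2. Over the 3 baits the promoter end had 0, 5, 1 and 5 contacts and the body 15, 11, 15 and 10.

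The promoter end took about the share of BMP7 contacts that its width gives. It held 11 of 62 contacts, or 17.7% (Wilson interval 10.2 to 29.0), in 14.3% of the bins. The share was 16.1% in wild-type and 19.4% in p63-/- libraries, with 5 and 6 of 31 contacts. The spread lay between libraries of the same genotype: the libraries numbered 1 together had 1 of 31 and those numbered 2 had 10 of 31, or 32.3% (18.6 to 49.9). Whether these numbers mark a shared preparation is not stated in the labels. Just past the promoter end, the first bin of the upper flank, 55845001, had 1, 10, 0 and 1 contacts with the upper bait, most of them in wild-type replicate 2, which had no contact of that bait with the promoter end.

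**Figure D4:**
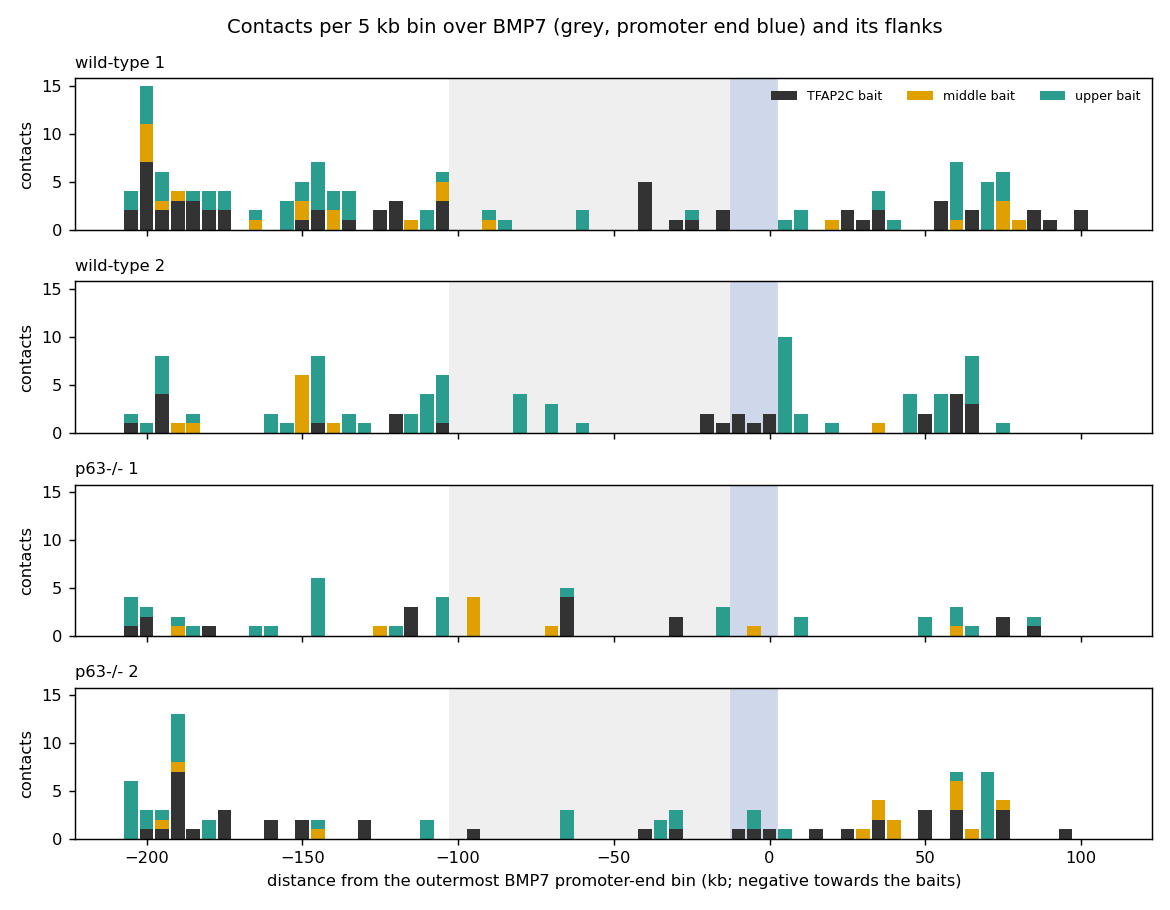
Contacts (y axis) of each 5 kb bin of the lower flank, BMP7 and the upper flank with the 3 baits, against the distance from the outermost promoter-end bin (kb, x axis, negative towards the baits), 1 panel for each library. No BMP7 bin exceeds 5 contacts in a library, and the promoter-end bins hold 0, 5, 1 and 5.

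Between genotypes no difference in BMP7 contacts was detected for any bait. Contacts of 21-bin windows were compared with edgeR's quasi-likelihood test, scaled to each bait's contacts within 1 Mb and adjusted over the windows of that bait. For the TFAP2C bait the log2 fold change of BMP7, p63-/- over wild-type, was -0.18 (SE 0.78, 95% interval -2.03 to 1.66, edgeR adjusted p = 0.820), where 0 of 13 windows (0%) passed an adjusted p of 0.05. For the upper bait it was 0.46 (SE 1.03, interval -1.72 to 2.66, edgeR adjusted p = 0.939), again with 0 of 13 windows (0%) passing. The 7 BMP7 contacts of the middle bait were under the minimum of 10, so that window was not tested. Of the bait's 7 tested windows, 0 (0%) passed.

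Summing the baits narrowed the interval without yielding a call. BMP7 had a log2 fold change of 0.50 (SE 0.55, interval -0.63 to 1.64, edgeR adjusted p = 0.643), with 0 of 14 windows (0%) passing. At an unadjusted p under 0.05 the 4 sets of windows held 0, 0, 1 and 1 windows (TFAP2C, upper, middle, sum), and DESeq2 called 0 in each after adjustment. The intervals leave room for changes of several fold in either direction for single baits. All these directions are relative to the bait's own contacts within 1 Mb. Scaled to all between-bin contacts of chromosome 20, the median window of the sum moved from 0.33 to -0.70. BMP7 moved to -0.51 for the sum, -0.67 for the upper bait and -0.9995 for the TFAP2C bait. Summed bait contacts numbered 1131 and 623 of 8402 and 4882 between-bin contacts in wild-type libraries. In p63-/- libraries they numbered 485 and 730 of 6852 and 12238, a lower fraction in both. The main scaling removes this difference, whose cause was not tested.

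As a share of the bait's contacts, BMP7 took 2.67 ± 1.04% (SD, n = 2) in wild-type and 2.30 ± 0.688% in p63-/- libraries for the TFAP2C bait. It took 1.51 ± 0.979% and 1.98 ± 0.409% for the upper bait, and 1.95 ± 0.878% and 2.68 ± 0.880% for the sum. Exact two-sided permutation tests gave p = 0.67 for each of these 3 comparisons, and 2 libraries against 2 cannot give less than 0.33. For the middle bait the shares were 0.469 and 0% against 6.67 and 0%, so the higher p63-/- mean came from p63-/- replicate 1 alone.

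The flanks of BMP7 gave no call either. For the sum of the baits the log2 fold change was -0.38 in the lower flank (SE 0.32, edgeR adjusted p = 0.564) and -0.34 in the upper flank (SE 0.42, edgeR adjusted p = 0.643). The lower flank of the middle bait, with 14, 9, 2 and 3 contacts, had the lowest unadjusted p among the 21-bin windows described here. Its log2 fold change of -1.49 (SE 0.31) had an edgeR adjusted p of 0.127. That SE was derived from the test statistic of a fit with 3.52 degrees of freedom. It is smaller than the counting error of so few contacts, so it understates the uncertainty. DESeq2 gave a log2 fold change of -1.06 for this window (DESeq2 adjusted p = 0.734). Of 57 windows of 15 kb, the width of the promoter end, 1 (1.75%) passed for the sum of the baits, at 55440001 and outside BMP7. No 15 kb window of the sum passed with DESeq2 (smallest adjusted p = 0.987), nor in edgeR with a replicate block whose numbers were crossed between genotypes. In edgeR with TMM, an uncrossed replicate block, a 2 Mb range or no filter, 1 window passed each time. With all of chromosome 20 as library size 9 of 57 passed, where the median log2 fold change was -0.99. The number of calls thus depended on the setting. For the sum, the promoter end of BMP7 had a log2 fold change of 0.48 (SE 1.86, interval -3.90 to 4.91, edgeR adjusted p = 0.941). It was -0.52 when scaled to all of chromosome 20. None of the 21 BMP7 bins reached 10 contacts with a bait, so no single bin was tested.

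Set against its flanks in the same library, BMP7 was less of a low point in the p63-/- libraries, but the difference was not established. Summed over the baits, BMP7 took 11.0 and 15.7% of the contacts of the 3 windows in wild-type libraries, against 28.6 and 16.9% in p63-/- libraries. The genotypes did not overlap, yet the nearest values, 15.7 and 16.9%, were close. Of the 8 windows compared in this way (those with contacts in every library), 25% had p63-/- libraries all higher. These were BMP7 itself and the window at 55950001. The means were 13.4 ± 3.29% and 22.7 ± 8.29% (SD, n = 2), with an exact two-sided permutation p of 0.33, the smallest possible, and without p63-/- replicate 1 the difference of 9.35 percentage points was 3.50. For the upper bait the means were 10.4 ± 2.48% and 18.6 ± 8.08% (exact permutation p = 0.33), without overlap. Here too 25% of 8 windows had p63-/- libraries all higher, BMP7 itself and the window at 54900001. With each bin counted once, the difference for the upper bait was 5.72 percentage points in place of 8.24 (exact permutation p = 1), so the genotypes overlapped, and that for the sum was 4.70 points (exact permutation p = 0.33). For the TFAP2C bait they were 23.3 ± 10.6% and 26.4 ± 15.6% (exact permutation p = 1), and the libraries overlapped, against 20% of 10 windows. BMP7 itself held 31 contacts in each genotype, whereas the lower flank went from 129 in wild-type to 69 in p63-/- and the upper flank from 78 to 45, out of 1754 and 1215 bait contacts in all. With the libraries of each genotype pooled, the ratio of BMP7 to the upper flank was 0.397 for wild-type (exact interval 0.253 to 0.610). The pooled p63-/- ratio was 0.689 (0.421 to 1.11), and its interval includes 1. That higher value came from p63-/- replicate 1, whose own ratio was 1.33 (0.592 to 3.09). The ratio of p63-/- replicate 2, 0.455 (0.229 to 0.861), lay close to the 0.432 of wild-type replicate 2. Wild-type replicate 1 had the lowest ratio, 0.366. A genotype difference in this ratio was not tested.

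Whether BMP7 had a preferred partner apart from the baits could not be judged, because the method selects for ligations to the baits. The 59 contacts of BMP7 with other bins comprised 11 within 10 kb and 48 farther away. None of the farther pairs held more than 1 contact, which is too sparse to show or exclude such a partner. The 34 bins between the outermost baits that lie more than 10 kb from every bait had 0 contacts with BMP7, 2 with the lower and 5 with the upper flank. By shares of bait contacts over 12 values (3 baits in 4 libraries), the windows most like BMP7 among 15 were chr20:55950001-56055000, just beyond the upper flank, and chr20:54900001-55005000, below the TFAP2C bait. Their mean absolute log2 differences from BMP7 were 1.03 and 1.07. They held 8, 6, 7 and 15 and 17, 6, 19 and 20 contacts, whereas neither flank was among them.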

How the data were processed

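UMI-4C libraries of 2 wild-type and 2 p63-/- samples were read as deposited counts, each the contacts of 1 pair of 5 kb bins on chromosome 20 (hg19). The authors made these counts from paired reads with HiC-Pro and Bowtie, per the submitters' processing notes; versions, and whether copies of 1 molecule were collapsed, are not given in the sources used here. The values are whole-number counts with no normalization, and 70.8 to 76.8% of them lie within single bins, which entered no bait comparison. The 3 bait bins were taken by position, and the files do not name the bait primers.

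Contacts of each bait were summed over BMP7, both flanks and tiles of 21 bins and of 3 bins (15 kb). Library size was the bait's contacts within 1 Mb, without bins within 10 kb of it. For the sum over baits, the bins near any bait were left out, which left 1131, 623, 485 and 730 contacts. Windows with at least 10 contacts were tested with edgeR 4.0.16 (quasi-likelihood, both genotypes, Benjamini-Hochberg adjustment within each bait and window width) in R 4.3.3. The code was tested on simulated counts. Shares were compared by exact permutation (scipy 1.17.1), and ratios of pooled counts have exact conditional intervals. The limit for a count of 0 is 3 counts of the total. Alternatives were DESeq2 1.42.0, TMM, another library size, a 2 Mb range, no filter, a replicate block and leaving out each library.

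Bins named in the text are the 3 promoter-end bins and, for each bait, the 3 body bins with most contacts. The fullest bin over all baits, empty bins and the bin at 55845001 were chosen after their values were seen. BMP7 and the windows were chosen with earlier results of these data known. A planned loess trend over distance could not be used, because 58.3 to 75.3% of bins held 0 and the trend summed to at most 60.5% of the contacts. The ratio to the geometric mean of the flanks, and likeness by shares, took its place and were chosen after seeing the data. Replicate numbers were not taken to pair the libraries. No column of other samples was present. No promoter or protein sequence is printed.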

Additional observations from a re-analysis of the deposited data

How the results depend on the processing

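Of 129 recomputed fold changes, 114 kept their direction and stayed without a call, 12 reversed and 3 were called only under the alternative. Of 56 recomputed differences in shares, 45 kept their direction and 11 reversed; their permutation p could not pass under any setting. Of 43 recomputed ratios to the flanks, which carry no test, 3 moved by more than the spread of the libraries. BMP7 was never called: its edgeR or DESeq2 adjusted p ran from 0.430 to 0.964 for the TFAP2C bait, 0.663 to 0.996 for the upper bait and 0.426 to 0.999 for the sum. With all of chromosome 20 as library size, log2 fold changes of BMP7 reversed to -0.67 (upper bait) and -0.51 (sum), that of its promoter end to -0.52, and 7 of 14 windows of the sum were called. The lower flank was then called for the middle bait (-2.66, edgeR adjusted p = 0.0120) and the sum (-1.41, adjusted p = 0.000159), and the upper flank for the sum (-1.38, adjusted p = 0.00156). This scaling moved the median window from -0.12 to -0.93 (TFAP2C), -0.20 to -1.37 (middle) and 0.10 to -1.04 (upper). Counting each bin once turned the difference in the share of BMP7 plus flanks of the TFAP2C bait to -0.45 percentage points and that in the share of bait contacts of the sum to -0.10. Without the fullest bin the former was -9.47, and with the body alone the share of bait contacts of the TFAP2C bait differed by 0.24. Over counts within bins, the log2 ratio of BMP7 to the geometric mean of its flanks was -0.84 (upper bait), -0.54 (sum) and -0.071 (TFAP2C bait), nearer 0.

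Leaving out each library in turn, the log2 fold change of BMP7 ran from -0.58 to 0.22 (TFAP2C bait), -0.13 to 1.26 (upper) and 0.00063 to 0.95 (sum), and that of its promoter end from -0.74 to 1.10 (sum). The lower flank ran from -0.83 to 0.27 (TFAP2C) and -0.52 to 0.23 (upper), and the upper flank from -1.28 to 0.29 (TFAP2C) and -0.91 to 0.018 (sum). The arm left with 1 library is assumed to vary alike. Differences in the share of BMP7 plus flanks ran from -7.89 to 14.2 (TFAP2C), -2.38 to 64.3 (middle), 2.53 to 14.0 (upper) and 3.50 to 15.2 (sum) percentage points. Those in the share of bait contacts ran from -1.10 to 0.36, -0.23 to 6.43, -0.22 to 1.16 and 0.11 to 1.35. The log2 ratio to the geometric mean of the flanks stayed below 0, from -1.07 to -0.59, -4.39 to -1.01, -1.99 to -1.39 and -1.58 to -1.07 in that order; the value of -4.39 is without p63-/- replicate 1. The cause of these shifts was not tested.

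Deviations of same-numbered libraries correlated at 0.401, -0.670, 0.326 and -0.228 (TFAP2C, middle, upper, sum), so the numbers were not taken as pairs. With a replicate block BMP7 had log2 fold changes of -0.19 (TFAP2C), 0.44 (upper) and 0.49 (sum), and 1 of 14 windows of the sum was called in place of 0. With the numbers crossed 0 of the 14 were called. Alternatives of the loess trend were not run, and the BMP7 window of the middle bait and the promoter end of single baits were too sparse. Depth limits every comparison, with 7 to 29 BMP7 contacts per bait.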
